A study of Mus musculus with 6 samples.

Results

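The genes described here are 45 symbols that mark the differentiated proximal tubule of the kidney: its endocytic receptors, apical and basolateral carriers, brush border enzymes, scaffolds and intracellular proteins. A gene was a member when its symbol in the expression table was equal to 1 of the 45. Of the 45 symbols, 36 were found among the 29595 genes of the table. The other 9 matched no row and were not analysed here: Slc34a1, Slc22a6, Slc22a8, Slc22a12, Slc22a2, Slc13a3, Slc7a9, Kap and Acsm2. All 29595 listed genes had a count above 0 in at least 1 library, so a gene without reads may have no row. Whether this holds for these 9 was not tested. The rule uses symbols only and no measured level.

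The cells were TKPTS, an immortalised mouse line labelled as renal proximal tubule cells. In the Hnf3a group (n = 3) they were transfected with pcDNA3.1-Hnf3a-Flag, a plasmid that expresses Flag-tagged HNF3α, the forkhead transcription factor encoded by Foxa1. In the pcDNA group (n = 3, genotype labelled WT) they received pcDNA3.1-Flag, the same vector without the insert. Both groups were harvested 24 h after transfection, grown in 6-well plates, and no TGF-β1 is named for either. Transfection was transient, only 1 line and 1 time point were used, and the labels do not say whether replicates were separate cultures, so p-values measure the spread between these samples.

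The proximal tubule takes back most of what the glomerulus filters. Its brush border carries sodium-coupled carriers for glucose, phosphate and amino acids, the endocytic receptors megalin and cubilin take up filtered protein, and basolateral and apical carriers secrete organic anions and drugs. Cells of this segment are known to lose much of this program when grown as lines, and HNF4 factors are known to maintain it in the kidney.

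The total estimated count per library ran from 60473818 (pcDNA replicate 1) to 71154667 (Hnf3a replicate 2). The deposited FPKM values (fragments per kilobase, with the library size divided out) are levels per length, and only these were used to compare genes with each other. Foxa1 stood at 334.2, 295.5 and 284.2 FPKM in Hnf3a replicates 1, 2 and 3 and at 9.49, 9.54 and 9.96 FPKM in the pcDNA replicates, so every library matched its label. Hnf3a replicates 2 and 3 stood apart from the rest in genes of other cell types. A list of 7 fibroblast genes summed to 128, 4607 and 5353 counts in Hnf3a replicates 1, 2 and 3 and to 45, 90 and 74 counts in the pcDNA replicates, with 4, 7 and 7 of its genes above the detection floor against 1, 3 and 2. A list of 8 macrophage and blood genes had 2, 8 and 8 genes above the floor in the Hnf3a replicates and 3, 5 and 2 in the pcDNA replicates. Their part in the results below was not tested, and the main results are given with and without these 2 libraries. Without them 1 Hnf3a library is left, which has no spread of its own, so log2 fold changes are given for that fit.

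Of the 36 listed members, 22 were above 12 counts in all 3 pcDNA libraries. The floor of 12 counts stands for about 3 sequenced fragments, or 0.169 to 0.198 CPM (counts scaled to the library's total) depending on the library, and covers counting error only. The same 22 members were above the floor in all 6 libraries. Another 3 members (Slc17a1, Anpep and Keg1) passed the floor in 1 or 2 pcDNA libraries, and 11 were at or under it in every pcDNA library. Just above the floor was Lrp2, at 28, 17 and 51 counts in the pcDNA replicates, and just short of it was Anpep, at 7, 26 and 32 counts. Raising the requirement to 1 FPKM in every pcDNA library left 7 members: Slc9a3r1, Abcc4, Dab2, Mme, Car2, Slc4a4 and Dpp4. The remaining 15 of the 22 were under 1 FPKM in at least 1 pcDNA library, and 12 of them were under 0.5 FPKM in every pcDNA library. The median pcDNA level of the listed members was 0.095 FPKM, against 0.273 FPKM for all genes of the table.

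**Figure D1:**
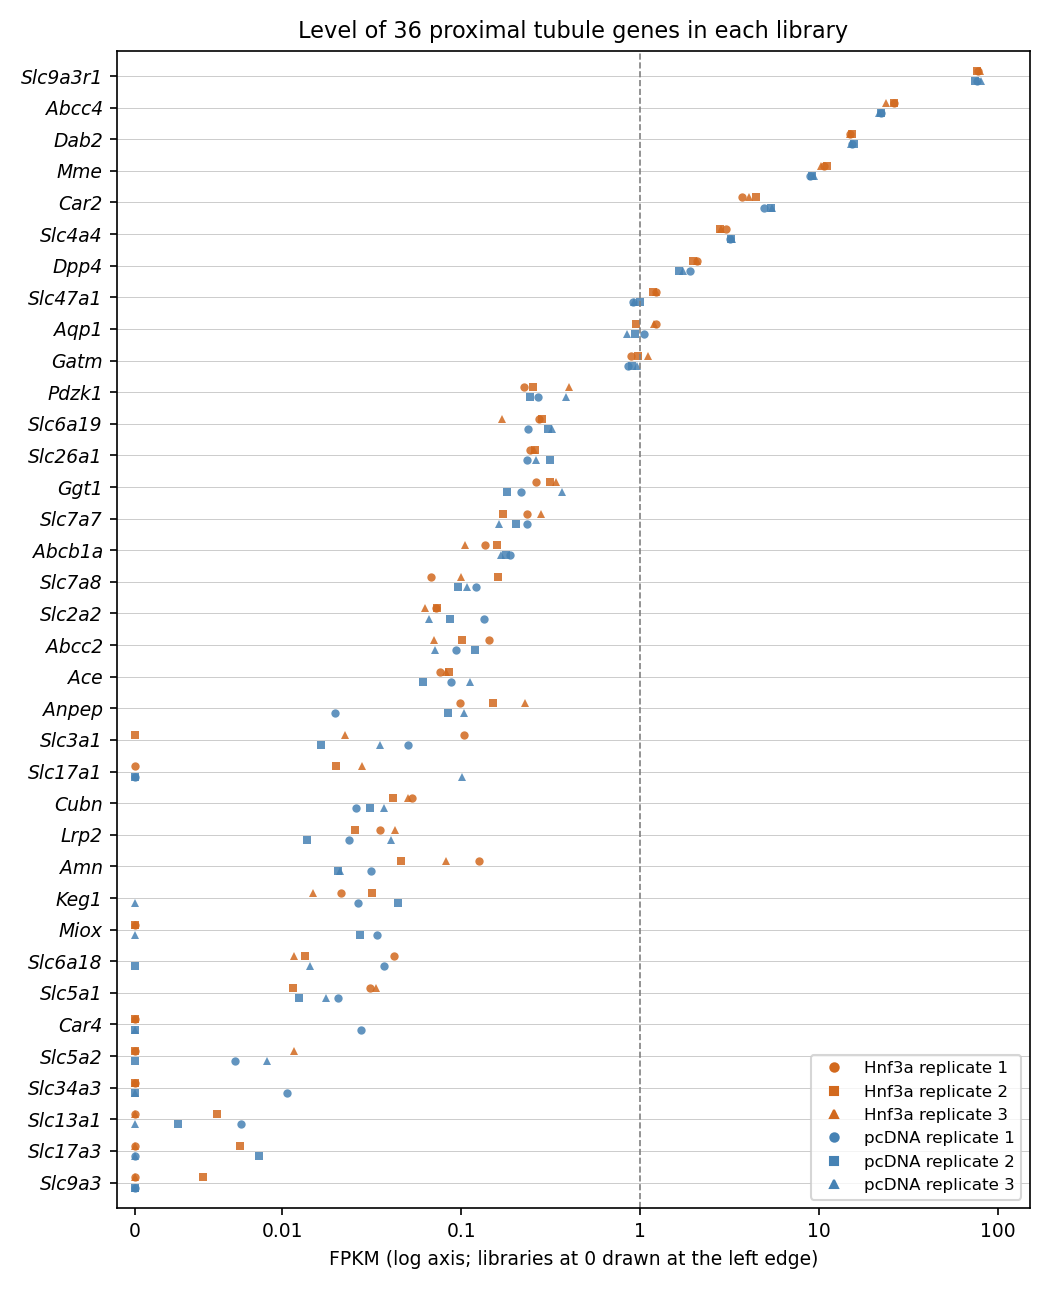
Level of the 36 listed proximal tubule genes in each library, in FPKM on a log axis, with libraries at 0 drawn at the left edge and a dashed line at 1 FPKM; genes are ordered by their level in pcDNA cells. 7 genes lie at or beyond the line in every pcDNA library, while most of the others lie well below it in both groups.

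Most of the signal came from a few genes. The FPKM of the 36 members summed to 137.7, 136.4 and 142.0 in the pcDNA replicates and to 143.5, 142.7 and 142.9 in the Hnf3a replicates, about 0.0483% to 0.0516% of all FPKM. Slc9a3r1 alone made 53.0% to 56.6% of the sum in each library, and Slc9a3r1, Abcc4, Dab2 and Mme together made 88.9% to 90.0%. None of these 4 is a carrier for glucose, phosphate or amino acids.

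The labelled cell type was checked against 17 defining markers of the proximal tubule within the list. Of these, 8 were above the floor in every pcDNA library (Lrp2, Cubn, Aqp1, Slc6a19, Slc4a4, Ggt1, Dpp4 and Gatm), and only Slc4a4 and Dpp4 reached 1 FPKM in every pcDNA library. Anpep passed the floor in some libraries only, Slc5a1, Slc5a2, Slc9a3 and Miox were at or under it in every pcDNA library, and the other 4 markers had no row. So 7 members of the list reached 1 FPKM in every pcDNA library, and 2 of these were defining markers. Most markers of reabsorption were low or not detected at this depth.

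RefSeq promoter windows (build GRCm38.p6, from 250 bases before to 50 bases after a gene's start) were found for 40 of the 45 members, 58 windows in all. The members at 1 FPKM or more had 11 windows, from 6 of the 7 genes. Their median ratio of observed to expected CpG was 0.720, and 6 of the windows were over 0.6. The 24 windows of members above the floor but under 1 FPKM had a median of 0.285, the 12 windows of listed members not above the floor in every pcDNA library 0.354, and the 11 windows of members without a row 0.25. Those 3 sets came from 14, 11 and 9 genes, in that order. Over all 32851 promoter windows the median was 0.384, and 35.8% were over 0.6. These are descriptions, and windows of 1 gene can share sequence. For 3 of the most abundant members, the 250 bases upstream of 1 start are shown as examples with few and with many CG, in capitals (Slc9a3r1 at chr11:115163091-115163340, plus strand; Abcc4 at chr14:118706220-118706469, minus strand; Mme at chr3:63294961-63295210, plus strand), each 5′ to 3′ on the strand of its gene. They hold 20, 35 and 2 CG, in that order. The number depends on the start: the other Abcc4 window holds 4 CG in its upstream bases and the other 2 Mme windows hold 27 each. The ratios of observed to expected CpG were 0.376 and 1.04 for the 2 Abcc4 windows and 0.311, 0.801 and 0.772 for the 3 Mme windows, so neither gene is rich or poor in CpG at every start. The Mme starts with more CG are not shown because their upstream bases overlap annotated exons.
Slc9a3r1: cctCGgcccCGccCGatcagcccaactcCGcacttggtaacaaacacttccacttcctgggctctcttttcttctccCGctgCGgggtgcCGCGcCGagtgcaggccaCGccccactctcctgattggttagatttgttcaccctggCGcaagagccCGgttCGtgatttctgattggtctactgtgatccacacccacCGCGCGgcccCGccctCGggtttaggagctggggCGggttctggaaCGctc
Abcc4: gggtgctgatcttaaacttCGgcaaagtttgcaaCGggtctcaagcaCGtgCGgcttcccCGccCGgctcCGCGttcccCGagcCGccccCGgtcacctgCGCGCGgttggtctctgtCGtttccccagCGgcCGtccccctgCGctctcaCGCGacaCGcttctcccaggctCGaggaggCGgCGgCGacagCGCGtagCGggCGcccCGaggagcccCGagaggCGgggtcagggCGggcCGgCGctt
Mme: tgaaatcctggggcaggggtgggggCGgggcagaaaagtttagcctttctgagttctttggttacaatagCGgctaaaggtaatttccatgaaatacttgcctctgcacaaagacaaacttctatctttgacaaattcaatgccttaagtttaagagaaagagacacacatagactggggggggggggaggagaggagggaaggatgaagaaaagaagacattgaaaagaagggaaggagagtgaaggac

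Both strands of the windows were also searched for short motifs. The forkhead motif, TGTTTAC or TATTTAC, was in 4 windows of Abcb1a, Slc26a1 and Slc34a3 (6.9%), against 6.54% of all promoter windows, and none of the windows of Mme, Abcc4 and Dpp4 held it. The HNF4 repeat CAAAGTCCA was in the windows of Pdzk1 and Slc3a1 (3.45%), against 0.475% of all promoter windows. A match is a description of the letters only. The 250 bases upstream of Slc3a1, the heavy chain of the cystine carrier (chr17:85028097-85028346, plus strand), are shown as an example of a member with a motif but little measured RNA. They run 5′ to 3′, and capitals mark the HNF4 repeat.
Slc3a1: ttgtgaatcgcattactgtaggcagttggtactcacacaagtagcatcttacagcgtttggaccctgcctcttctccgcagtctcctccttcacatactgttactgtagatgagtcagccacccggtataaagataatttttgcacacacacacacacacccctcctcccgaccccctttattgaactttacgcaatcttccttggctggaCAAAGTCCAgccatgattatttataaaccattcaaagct

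HNF3α was overexpressed to ask what it changes in these cells, and the 36 members were read from the test across all genes. In that test, 24 members passed the filter on low counts and 12 did not. Of the 24, 2 rose in the Hnf3a group (Mme and Abcc4) and 1 fell (Car2), each by at most 1.3-fold. That is 12.5% of the members tested, while 3.17% of the 17824 genes tested were called, 1.04% higher and 2.13% lower. The members had to be expressed to be tested, so the count speaks for those 24 only. The median log2 fold change of the 24 was 0.063, against 0.000845 over all genes tested, with 13 members above 0 and 11 below. Without an adjustment for many tests, 7 of the 24 had p under 0.05: Mme, Abcc4, Car2, Slc4a4, Slc47a1, Dpp4 and Anpep, where 13.5% of all genes tested did. The groups did not overlap in CPM for 8 of the 24 (33.3%), against 19.1% of all genes tested. The Hnf3a libraries were all above the pcDNA libraries for 5 members (background 10.8%) and all below for 3 (background 8.34%).

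**Figure D2:**
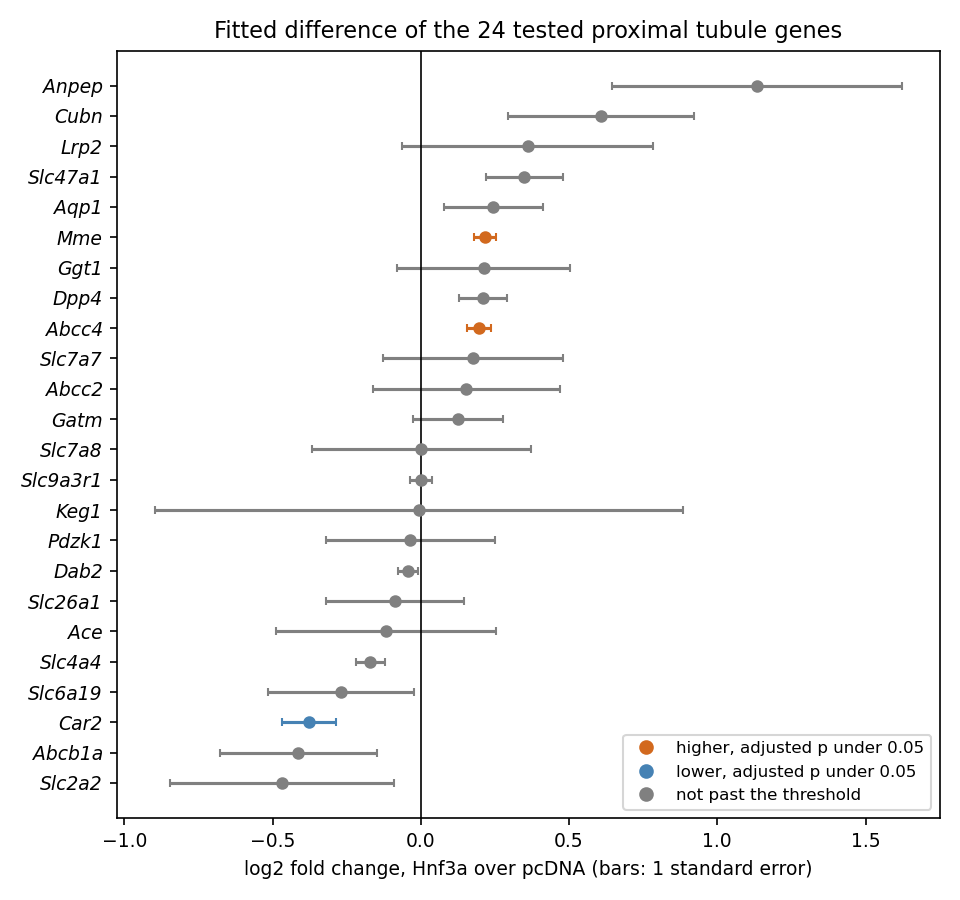
Fitted log2 fold change, Hnf3a over pcDNA, of the 24 members tested (points), with bars of 1 standard error. Mme and Abcc4 are past the threshold on the higher side and Car2 on the lower side, and genes with few counts, such as Anpep and Keg1, have wide bars.

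Brush border enzymes cut peptides at the cell surface. Mme (ENSMUSG00000027820, chr3:63241537-63381623), which encodes neprilysin, stood at 10.6, 11.1 and 10.2 FPKM in Hnf3a replicates 1, 2 and 3 and at 8.88, 9.11 and 9.34 FPKM in the pcDNA replicates, the lowest Hnf3a library above the highest pcDNA library. The means were 10.6 ± 0.431 and 9.11 ± 0.229 FPKM (SD, n = 3 each). The log2 fold change was 0.22 (SE 0.037, 1.16-fold, adjusted p = 0.00515 by edgeR's quasi-likelihood test). The edgeR adjusted p was 0.0606 without Hnf3a replicate 2 and 0.0555 without pcDNA replicate 1, at log2 fold changes of 0.19 and 0.20. With Hnf3a replicates 2 and 3 both left out, the log2 fold change was 0.22. In these bulk libraries a higher level per cell and a larger share of cells with the RNA cannot be told apart.

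Dpp4, the dipeptidyl peptidase of the brush border, stood at 2.08, 1.97 and 2.08 FPKM in the Hnf3a replicates and at 1.89, 1.65 and 1.73 FPKM in the pcDNA replicates. Its groups did not overlap, but the log2 fold change of 0.21 (SE 0.082) did not pass the threshold (edgeR adjusted p = 0.260). Anpep, aminopeptidase N, had 30, 51 and 69 counts in the Hnf3a replicates and 7, 26 and 32 counts in the pcDNA replicates. It had the largest fitted log2 fold change of the 24, 1.13 (SE 0.49), and an edgeR adjusted p of 0.322. With Hnf3a replicates 2 and 3 left out its log2 fold change was 0.46 (SE 0.76). Ggt1, a gamma-glutamyltransferase, had 66, 85 and 87 counts against 53, 47 and 94, and the groups overlapped (edgeR adjusted p = 0.851). Ace, the angiotensin converting enzyme, had 25 to 43 counts in all 6 libraries. In this group of 5 enzymes, all of them tested, 1 rose, none fell and 4 did not pass the test.

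Organic ion and drug carriers secrete or export anions, cations and drugs. Of 11 symbols, 6 had a row and 4 were tested. Abcc4 (ENSMUSG00000032849, chr14:118482692-118706219), an ATP-driven exporter of organic anions and cyclic nucleotides, stood at 26.1, 26.2 and 23.7 FPKM in the Hnf3a replicates and at 22.2, 22.2 and 21.6 FPKM in the pcDNA replicates, with no overlap. Its means were 25.3 ± 1.45 and 22.0 ± 0.362 FPKM (SD, n = 3 each). The log2 fold change was 0.20 (SE 0.041, 1.15-fold, edgeR adjusted p = 0.0178). Its edgeR adjusted p was 0.141 without Hnf3a replicate 2, and 0.0884, 0.0988 and 0.109 without pcDNA replicates 1, 2 and 3, with log2 fold changes of 0.17, 0.20, 0.20 and 0.18. With Hnf3a replicates 2 and 3 both left out, the log2 fold change was 0.25.

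Slc47a1, the apical exporter of organic cations MATE1, stood at 1.23, 1.18 and 1.23 FPKM in the Hnf3a replicates and at 0.913, 0.997 and 0.925 FPKM in the pcDNA replicates. The groups did not overlap, and the log2 fold change of 0.35 (SE 0.13) was not past the threshold (edgeR adjusted p = 0.226). Abcb1a, a multidrug exporter, had 43 to 70 counts in the Hnf3a libraries and 67 to 73 in the pcDNA libraries. Scaled to library size, every Hnf3a library was below every pcDNA library (0.657 to 0.984 against 1.03 to 1.16 CPM), and the log2 fold change of -0.41 (SE 0.27) did not pass the test (edgeR adjusted p = 0.573). Its close copy Abcb1b had 1928 to 2478 counts, so reads that fit both genes make the value of Abcb1a uncertain. Abcc2, another exporter of organic anions, had 45 to 91 counts over the 6 libraries, and its groups overlapped. Slc17a1 reached 18 counts in pcDNA replicate 3 and no more than 5 in the other libraries, and Slc17a3 was at 0 or 4 counts in each. The organic anion and cation uptake carriers Slc22a6, Slc22a8, Slc22a12 and Slc22a2 and the dicarboxylate carrier Slc13a3 were those without a row.

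Sodium, acid and bicarbonate handling included the only member that fell. Car2 (ENSMUSG00000027562, chr3:14886273-14900770), the cytosolic carbonic anhydrase, stood at 3.68, 4.44 and 4.07 FPKM in the Hnf3a replicates and at 4.89, 5.39 and 5.47 FPKM in the pcDNA replicates, with every Hnf3a library below every pcDNA library. The means were 4.07 ± 0.378 and 5.25 ± 0.312 FPKM (SD, n = 3 each). The log2 fold change was -0.38 (SE 0.090, edgeR adjusted p = 0.0384). The call was lost when any 1 of the 6 libraries was left out: without Hnf3a replicates 1, 2 and 3 the edgeR adjusted p was 0.103, 0.0612 and 0.0899. Leaving out each pcDNA replicate in the same order gave 0.0725, 0.165 and 0.150, with log2 fold changes from -0.44 to -0.31. With Hnf3a replicates 2 and 3 both left out, the log2 fold change was -0.51.

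Slc4a4, the basolateral sodium bicarbonate cotransporter and 1 of the 2 defining markers at 1 FPKM or more, stood at 3.00, 2.79 and 2.84 FPKM in the Hnf3a replicates and at 3.19, 3.22 and 3.26 FPKM in the pcDNA replicates. Its groups did not overlap. The log2 fold change of -0.17 (SE 0.049) had an edgeR adjusted p of 0.0940, and 0.0451 without Hnf3a replicate 1. The log2 fold change was -0.10 with Hnf3a replicates 2 and 3 both left out. The apical sodium proton exchanger Slc9a3 had 2 counts in Hnf3a replicate 2 and 0 in the other 5 libraries, and the membrane carbonic anhydrase Car4 had 4 counts in pcDNA replicate 1 and 0 elsewhere. Both lay under the floor in every library.

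**Figure D3:**
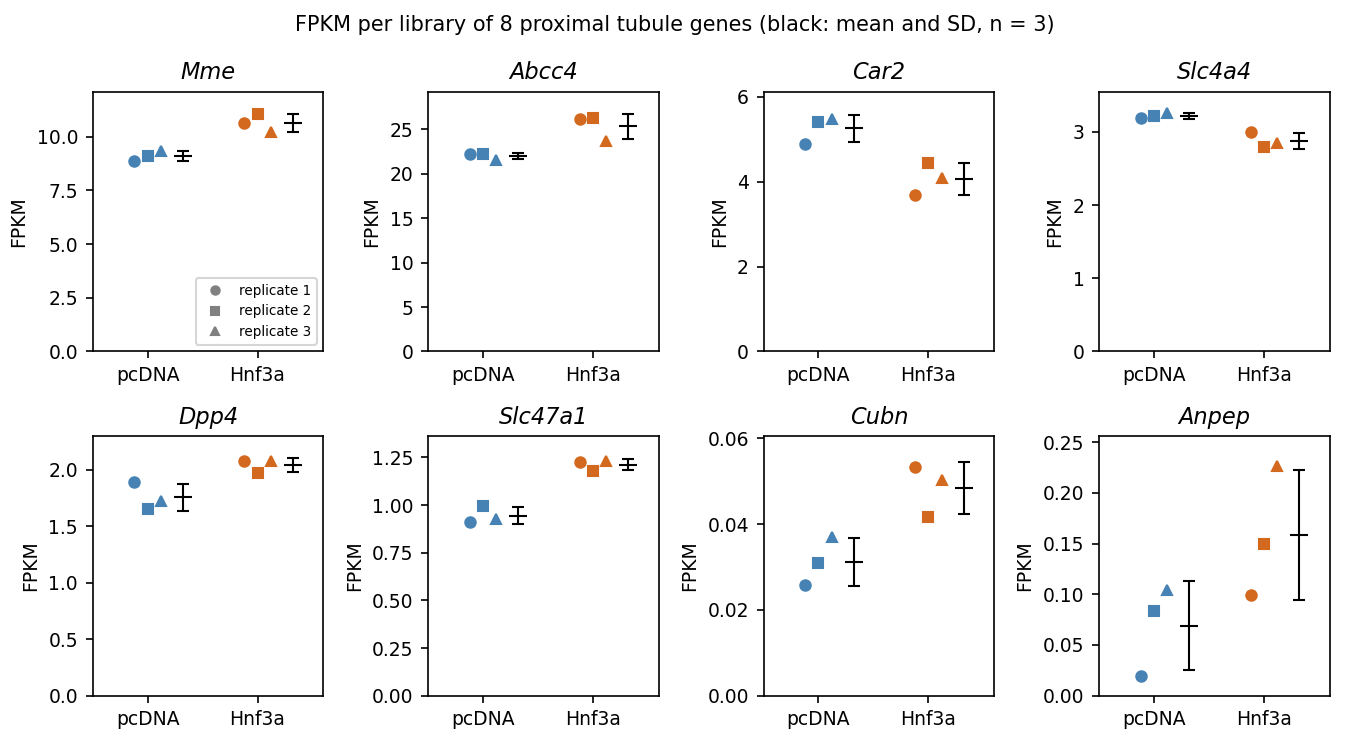
FPKM of 8 members in each library, pcDNA in blue and Hnf3a in orange, with the group mean and SD (n = 3) in black; each panel has its own linear axis from 0. The groups are apart in Mme, Abcc4, Car2, Slc4a4, Dpp4, Slc47a1 and Cubn, and overlap in Anpep.

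Endocytic receptors take up filtered protein. Dab2, the adaptor that links megalin to clathrin, was well expressed at 14.9, 15.2 and 14.8 FPKM in the Hnf3a replicates and 15.3, 15.7 and 15.1 FPKM in the pcDNA replicates (log2 fold change -0.04, SE 0.033, edgeR adjusted p = 0.652). Dab2 is also widely expressed outside the kidney. The receptors themselves were low. Lrp2, megalin, had 43, 34 and 53 counts in the Hnf3a replicates and 28, 17 and 51 counts in the pcDNA replicates, which overlapped, or 0.0138 to 0.0426 FPKM over all 6. Cubn, cubilin, had 58, 50 and 56 counts against 27, 34 and 41, with no overlap (log2 fold change 0.61, SE 0.31, edgeR adjusted p = 0.439). Amn, the membrane partner of cubilin, had 17, 7 and 12 counts against 4, 3 and 3 and was too low to be tested. None of the 3 genes tested in this group passed the test.

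Aqp1, the water channel of the proximal tubule, stood at 1.23, 0.952 and 1.20 FPKM in the Hnf3a replicates and at 1.05, 0.934 and 0.844 FPKM in the pcDNA replicates. These ranges overlapped, and the log2 fold change was 0.24 (SE 0.17, edgeR adjusted p = 0.606).

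Glucose and phosphate reabsorption had the least RNA of these functions in summed FPKM. Slc5a2, the main apical glucose carrier SGLT2, had 0, 0 and 3 counts in the Hnf3a replicates and 2, 0 and 2 in the pcDNA replicates. Slc5a1, the glucose carrier SGLT1, had 10, 4 and 11 counts against 6, 4 and 6. Both were under the floor in all 6 libraries, so neither level nor difference could be read at this depth. Slc2a2, the basolateral glucose carrier GLUT2, was detected at 27 to 34 counts in the Hnf3a libraries and 28 to 53 in the pcDNA libraries, with overlap. Of the phosphate and sulfate carriers, Slc34a3 and Slc13a1 had at most 4 counts in any library, and Slc26a1, a basolateral anion exchanger that carries sulfate, had 64 to 94 counts with overlapping groups.

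Amino acid carriers were detected at low levels only, and none of the 3 tested passed the test. Slc6a19, the apical carrier of neutral amino acids, had 100, 113 and 63 counts in the Hnf3a replicates and 82, 113 and 119 in the pcDNA replicates, which overlapped (log2 fold change -0.27, SE 0.25, edgeR adjusted p = 0.730). The basolateral light chains Slc7a7 and Slc7a8 had 25 to 68 counts over all 6 libraries. Slc3a1 and Slc6a18 were at or under the floor in every pcDNA library, and in the Hnf3a group each passed it in replicate 1 only, at 18 and 14 counts.

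PDZ scaffolds hold carriers in the brush border. Slc9a3r1, the scaffold NHERF1, was the most abundant member at 77.5, 75.7 and 79.3 FPKM in the Hnf3a replicates and 76.5, 74.3 and 80.5 FPKM in the pcDNA replicates, higher than 98.1% of all genes in pcDNA cells. The groups overlapped, and the log2 fold change of -0.00077 (SE 0.037, edgeR adjusted p = 0.996) changed sign with the scaling of the libraries. Like Dab2, it is known from other epithelia as well. Pdzk1, a second scaffold of apical carriers, stood at 0.226, 0.253 and 0.402 FPKM against 0.268, 0.243 and 0.383 FPKM, also overlapping (edgeR adjusted p = 0.983).

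Of the intracellular proteins, Gatm, the enzyme of the first step of creatine synthesis, stood at 0.889, 0.969 and 1.11 FPKM in the Hnf3a replicates and at 0.850, 0.894 and 0.963 FPKM in the pcDNA replicates (log2 fold change 0.12, SE 0.15, edgeR adjusted p = 0.823), with overlapping groups. Miox, which opens the inositol ring and is known as a tubule enzyme, had 4, 4 and 0 counts in the pcDNA replicates and 0 in every Hnf3a replicate, all under the floor. Keg1 had 7 to 16 counts in the Hnf3a libraries and 0 to 19 in the pcDNA libraries.

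The strand setting of the counting is not stated, so reads of a gene and of a partner on the opposite strand cannot be told apart. In GENCODE vM21, 17 of the 36 listed members are overlapped by another gene. Opposite-strand partners with shared exon bases and far higher counts were Gpr89 for Pdzk1 (1333 of 3556 exon bases, 3193 to 4031 counts), Idua for Slc26a1 (141 shared bases, 902 to 1068 counts), Oxa1l for Slc7a7 (232 shared bases, 3562 to 4047 counts), Prepl for Slc3a1 (601 shared bases, 1725 to 2083 counts) and BC017158 for Slc5a2 (597 shared bases, 1225 to 1440 counts). Slc5a2 and Slc3a1 had at most 3 and 18 counts next to these partners. For Cubn the opposite-strand partner Gm13270 shares 368 of 14935 exon bases, at 5 to 32 counts against 27 to 58 for Cubn. The values of Pdzk1, Slc26a1, Slc7a7 and Cubn are uncertain for this reason. For Mme, Car2 and Slc4a4 no overlapping gene is annotated, and those overlapping Abcc4 share none of its exon bases.

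The proteins that work with the members were better represented. A list of 20 partner genes of the proximal tubule (21 symbols, since Tmem27 is an older symbol of Cltrn) had 12 above the floor in every pcDNA library and 11 at 1 FPKM or more. Among the highest were Ezr, the brush border linker ezrin (145.1 ± 0.809 FPKM in Hnf3a and 145.2 ± 1.66 in pcDNA cells) and Slc3a2, the heavy chain of Slc7a7 and Slc7a8 (88.7 ± 0.486 and 84.7 ± 2.04 FPKM, SD, n = 3 each). Of 15 partner genes tested, 1 fell and none rose. Over all genes tested 3.17% were called, which is the background for this list and those below. The gene that fell was Pdzk1ip1, a small membrane partner of Pdzk1, at 68.8 ± 3.35 against 85.9 ± 1.61 FPKM (SD, n = 3 each), a log2 fold change of -0.33 (SE 0.038, edgeR adjusted p = 1.74e-04). Its log2 fold change was -0.40 with Hnf3a replicates 2 and 3 left out.

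Among 10 transcription factors of the proximal tubule, 5 were above the floor in every pcDNA library, and 3 were at 1 FPKM or more. These included Pax8 (29.7 ± 0.879 FPKM in Hnf3a and 29.2 ± 1.98 in pcDNA cells) and Esrra (6.22 ± 0.229 and 5.56 ± 0.203 FPKM, SD, n = 3 each), and neither passed the test. Hnf4a, a nuclear receptor known to maintain the proximal tubule, had 22, 4 and 16 counts in the Hnf3a replicates and 19, 25 and 4 in the pcDNA replicates. Of 7 tested, 1 rose: Ppara, the nuclear receptor of fatty acid oxidation, with 17, 35 and 46 counts in the Hnf3a replicates and 0, 7 and 0 in the pcDNA replicates. The edgeR adjusted p was 0.0480, and the mean Hnf3a level of Ppara, 0.485 CPM, was 2.58-fold the mean pcDNA floor of 0.188 CPM. Its counts were highest in Hnf3a replicates 2 and 3, and the call was lost without replicate 2 or without replicate 3. It was called in 6 of 15 alternative fits.

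Genes of other nephron segments were compared for level. Of 8 symbols of the thick ascending limb and distal convoluted tubule, 1 was above the floor in every pcDNA library and none reached 1 FPKM. Of 13 collecting duct symbols, 5 were above the floor and 1, the water channel Aqp3, reached 1 FPKM. Of 6 collecting duct genes tested, 2 fell and 1 rose, where 3.17% of all genes tested were called. Slc26a4, the anion exchanger pendrin, fell from 130, 113 and 150 counts in the pcDNA replicates to 30, 29 and 45 in the Hnf3a replicates (3.99-fold lower, edgeR adjusted p = 7.45e-04). Aqp3 fell from 4.84 ± 0.433 to 3.41 ± 0.376 FPKM (SD, n = 3 each, edgeR adjusted p = 0.0254). The sodium channel subunit Scnn1g rose from 16, 8 and 6 counts to 89, 56 and 26 (edgeR adjusted p = 0.0281). Slc26a4 was called in 16 of 16 alternatives, with log2 fold changes from -2.24 to -0.47. Aqp3 was called in 10 of 17, and its log2 fold change, -0.51, ran from -0.58 to -0.41 over them. Its call was lost without Hnf3a replicate 2 or pcDNA replicate 1 or 2 (edgeR adjusted p = 0.142, 0.149 and 0.120). Scnn1g was called in 8 of 15. Its adjusted p was 0.138 and 0.111 without Hnf3a replicates 1 and 2, 0.158 and 0.136 without pcDNA replicates 2 and 3, and up to 0.247 with limma, whose pseudocounts shrink the change of so low a gene.

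Of the lists for other kidney cell types, 3 of 5 podocyte symbols and 2 of 5 endothelial symbols were above the floor in every pcDNA library. The podocyte genes included Podxl, the surface sialomucin podocalyxin, at 42.8 ± 0.146 FPKM in Hnf3a and 41.0 ± 1.22 in pcDNA cells, and Nphs1, nephrin, at 2.83 ± 0.0688 and 2.74 ± 0.0991 FPKM (SD, n = 3 each). No podocyte gene of 3 tested passed the test. Of 4 endothelial genes tested, Cdh5, the cadherin of endothelial junctions, fell from 202, 279 and 284 counts to 107, 119 and 118 (log2 fold change -1.23, SE 0.17, edgeR adjusted p = 8.21e-04). It was called in 16 of 16 alternatives, with log2 fold changes from -1.34 to -0.44. No fibroblast gene of 6 tested and no macrophage or blood gene of 5 tested passed the test. All 6 and all 5 had a log2 fold change above 0, with medians of 3.83 and 1.01. Without adjustment, 5 and 1 had an edgeR p under 0.05, as did 13.5% of all genes tested. The fibroblast counts differed within the Hnf3a group, at 128, 4607 and 5353 summed over the list in replicates 1, 2 and 3.

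**Figure D4:**
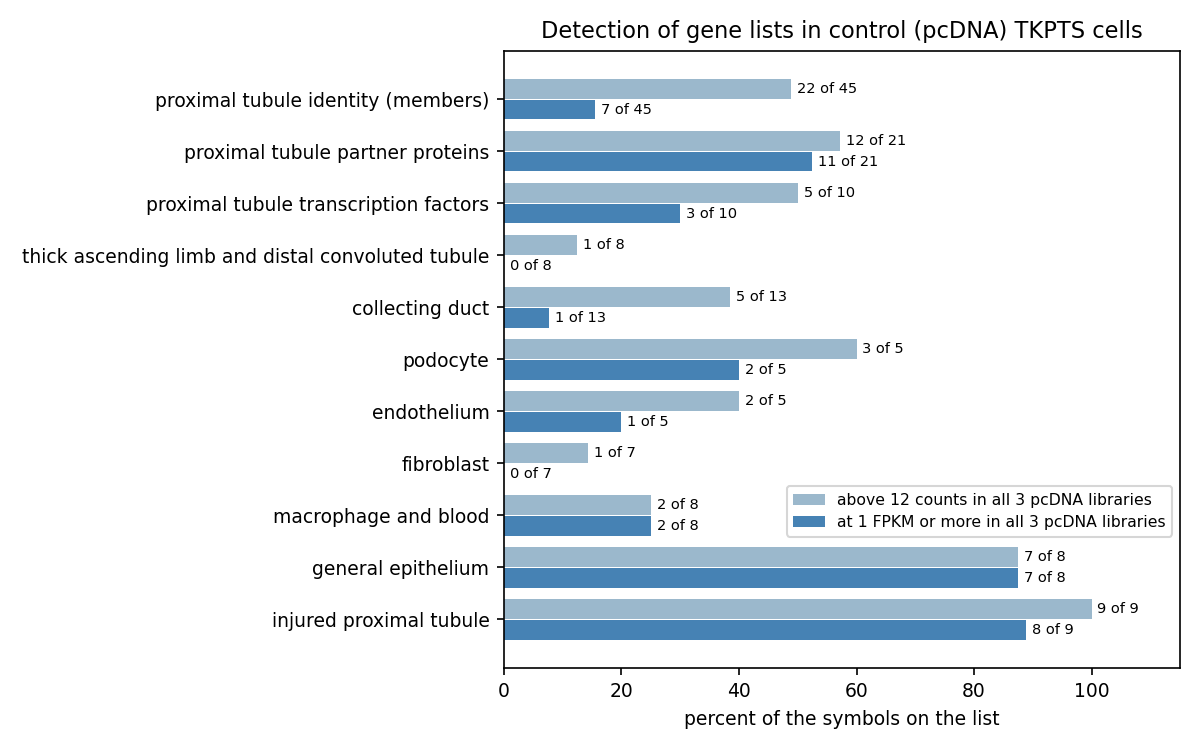
Percent of the symbols on each list that were above 12 counts (light bars) or at 1 FPKM or more (dark bars) in all 3 pcDNA libraries, with the counts beside the bars. The proximal tubule genes reached 1 FPKM for 7 of 45 symbols, against 7 of 8 general epithelial and 8 of 9 injury symbols.

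General epithelial genes and genes known to be switched on in injured proximal tubule were the most completely expressed lists. Of 8 general epithelial symbols, 7 reached 1 FPKM in every pcDNA library, and the exception was Cldn2, the leaky claudin of the proximal tubule, at 0 to 17 counts over the 6 libraries. Of 9 injury genes, all were above the floor in every pcDNA library and 8 reached 1 FPKM. The exception was Vim, at 207, 188 and 145 counts in the pcDNA replicates and 242, 822 and 743 in Hnf3a replicates 1, 2 and 3. Its log2 fold change of 1.64 (SE 0.51) was the largest of this list and did not pass the threshold (edgeR adjusted p = 0.279). Its rise lay mostly in Hnf3a replicates 2 and 3, the libraries with high fibroblast counts. Among the 9 injury genes, all tested, 2 rose and 2 fell. For this list and the epithelial list, the share called over all genes tested was 3.17%. Havcr1, which encodes the injury marker KIM-1, rose from 5.52 ± 0.432 to 7.73 ± 0.718 FPKM (log2 fold change 0.48, SE 0.086, edgeR adjusted p = 0.00677), and Spp1, osteopontin, rose from 348.4 ± 11.2 to 405.9 ± 19.1 FPKM (edgeR adjusted p = 0.00419). Lcn2, the iron-scavenging lipocalin, and Vcam1, an adhesion molecule, fell, with edgeR adjusted p of 1.10e-08 and 0.0331. Leaving out Hnf3a replicates 2 and 3, the log2 fold changes were 0.41 for Havcr1, 0.20 for Spp1, -0.81 for Lcn2 and -0.22 for Vcam1. The main values were 0.48, 0.21, -0.83 and -0.32, and every alternative kept the direction. Lcn2 was called in 17 of 17 alternatives, Havcr1 in 13, Spp1 in 12 and Vcam1 in 9. Among single libraries, the call was lost without pcDNA replicate 2 or 3 for Havcr1 (edgeR adjusted p = 0.0616 and 0.0523), without pcDNA replicate 1 or 2 for Spp1 (0.0538 and 0.0558), and without Hnf3a replicate 2 or pcDNA replicate 1 or 2 for Vcam1 (0.0947, 0.136 and 0.114). Of the 8 epithelial genes tested, the keratins Krt18 and Krt19 rose and the junction protein Tjp1 fell, with log2 fold changes of 0.20, 0.21 and -0.14. Their edgeR adjusted p was 0.00148, 0.00269 and 0.00989. With those 2 libraries left out, the log2 fold changes were 0.23, 0.19 and -0.12. Over all alternatives the log2 fold change of Krt19 ran from 0.18 to 0.25 and that of Tjp1 from -0.15 to -0.12. Krt18, Krt19 and Tjp1 were called in 17, 16 and 9 of 17. Tjp1 lost its call without Hnf3a replicate 2 (edgeR adjusted p = 0.0683) and without pcDNA replicate 1, 2 or 3 (0.0626, 0.0991 and 0.0550).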

How the data were processed

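RNA was sequenced from 6 libraries of TKPTS cells, 3 per group, grouped and numbered by the sample labels. Polyadenylated RNA was made into strand-marked libraries with molecular identifiers and read from both ends, per the labels. The authors deposited estimated counts and FPKM values per gene and library; how they were normalised beyond library size and length is not given in the sources used here. The submitters' processing notes name cutadapt 1.9, HISAT2 2.0.4, UMI-tools, StringTie 1.3.4d, DESeq2, edgeR and mm10. The annotation and the strand setting are not given in the sources used here.

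The deposited estimated counts were whole numbers, from 60473818 to 71154667 per library. Values clustered at 4 counts, so 12 counts, about 3 fragments, was taken as the floor. Genes were filtered with filterByExpr, scaled by TMM and tested two-sided with edgeR 4.0.16 (quasi-likelihood, robust) under R 4.3.3, without covariates. The Benjamini-Hochberg adjustment covered the 17824 genes tested, and 0.05 was the threshold. An exact permutation test of 1 gene, 3 against 3, cannot go below 0.1. A standard error is the size of the log2 fold change over the root of its F statistic. The procedure was tested on simulated data. Alternatives used DESeq2 1.42.0 and limma 3.58.1 on log2(FPKM + 0.1), with pseudocounts of 1 and 0.01 as well; this scale understates changes of low genes. Overlaps between genes were read from GENCODE vM21.

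Every library value was given for members past the threshold, the 8 most abundant others and the defining markers, and the rest by ranges. From the other lists, genes past the threshold were named, with others among their most abundant. Hnf4a, Cldn2, Amn and Vim were named with values after these were seen. The members and lists were chosen with earlier results of these data known. Some genes of the lists and some motifs are not reported here.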

Additional observations from a re-analysis of the deposited data

How the results depend on the processing

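Foxa1 kept its direction and call in 17 of 17 alternatives, with log2 fold changes of 4.84 to 5.11. The 3 calls among the members stayed 3 with DESeq2 size factors, total-count scaling, no filter on low counts, a filter at 1 FPKM, counts divided by 4, and the DESeq2 Wald test. With limma on log2 FPKM, at pseudocounts of 0.1, 1 and 0.01, it was 0, 0 and 0 members (6 at an unadjusted p under 0.05 each time), while the genes called fell from 565 to 236, 231 and 245. Leaving out 1 library at a time gave 0 to 3 members and 263 to 643 genes: 0 members without Hnf3a replicate 2 (7 at an unadjusted p under 0.05) and without pcDNA replicate 1 (6 unadjusted), 1 without pcDNA replicate 2 or 3, 2 without Hnf3a replicate 3, and 3 without Hnf3a replicate 1, where Slc4a4 took the place of Car2. The genes called were 263 without Hnf3a replicate 2, 286, 267 and 349 without pcDNA replicates 1, 2 and 3. With Hnf3a replicates 2 and 3 both left out, a choice made after seeing the data, 2 members and 322 genes were called, the lone Hnf3a library being taken to vary like the pcDNA libraries. Mme was called in 12, Abcc4 in 10 and Car2 in 7 of 17 alternatives, with edgeR, limma or DESeq2 adjusted p up to 0.0736, 0.141 and 0.165.

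Same-numbered libraries did not deviate together (correlations of -0.041, -0.010 and 0.00998 for numbers 1, 2 and 3), so no pairing by number was seen. Whether they shared a culture or batch was not tested. With the replicate number as a block, 3 members and 463 genes were called, and the members' median log2 fold change was 0.13.

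That median, 0.063, was 0.0044 with no filter on low counts, 0.20 with the filter at 1 FPKM, 0.15 with counts divided by 4, 0.0098 and 0.12 with limma at pseudocounts of 1 and 0.01, 0.049 to 0.17 with 1 library left out, and 0.0084 with Hnf3a replicates 2 and 3 left out. The fits with another filter, with counts divided by 4 and with both libraries left out tested 36, 9, 20 and 29 members in place of 24. Both limma fits and the block tested 24, and the cause of their shift was not tested. The members detected in every library, 22 in pcDNA and 23 in Hnf3a cells, were 7 and 8 at 1 FPKM, and 16 to 25 and 18 to 27 at the other limits. The sign turned for Gatm (-0.019 with Hnf3a replicates 2 and 3 left out), for Pdzk1 (-0.32 to 0.18 without 1 library, and above 0 in 3 of these 6 fits) and for Slc9a3r1. Slc9a3r1 was at 0.000712, 0.011, 0.00289, 0.00486, 0.000447 and 0.000664 with DESeq2 size factors, total-count scaling, no filter, the 1 FPKM filter, counts divided by 4 and the DESeq2 Wald test. With limma at pseudocounts of 0.1, 1 and 0.01 it was at 0.00804, 0.00795 and 0.00805, at -0.026 to 0.0304 without 1 library, and at 0.0084 with Hnf3a replicates 2 and 3 left out. None of these 3 genes was called in any alternative. Depth limits the 8 members at or under 12 counts in all 6 libraries, for which neither level nor difference can be read.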
